A study of Homo sapiens with 12 samples.

Results

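Neurotrophins are secreted growth factors, and their receptors and ligands were followed here in A375, a human skin melanoma line, and 253J, a human bladder carcinoma line. The genes were chosen by name: NTRK2 and NTRK3 (the receptor tyrosine kinases TrkB and TrkC), NGFR (the pan-neurotrophin receptor p75), SORT1 (sortilin), and the ligand genes NTF3 (neurotrophin-3) and BDNF (brain-derived neurotrophic factor). Of these 6 genes, 4 have a row in both tables of 19423 genes. NTRK2 and NTF3 are not analysed here. The group was proposed because NTRK3 is lower in 253J positive cells and NGFR is lower in A375 positive cells, so every positive against negative value of the 4 genes below is a description and carries no p-value.

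Mature neurotrophins bind Trk receptors, whose intracellular kinase starts RAS-MAPK, PI3K and phospholipase C signalling. All of them also bind p75, a member of the tumour necrosis factor receptor family without a kinase domain. Uncleaved pro-neurotrophins bind p75 together with sortilin or a related sorting receptor, and this pairing is known for cell death signalling in neurons. In the pigment cell lineage, p75 marks neural crest and the neural-crest-like state of melanoma.

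Both lines were incubated for 24 h with fluorescent 2.4 µm beads. Cells holding at least 1 bead (positive) were separated by flow cytometry from cells without any (negative). Each branch went through 5 such cycles of sorting, and the cells grew for 5 generations before each sort. A375 positive, A375 negative, 253J positive and 253J negative cells have 3 poly(A) RNA libraries each, 12 in all. The labels name no transgene, deletion or drug in any group. The labels do not say whether the 3 libraries of a branch are separate cultures, so a p-value measures the spread between libraries, which may be technical. Where the libraries share 1 sorted branch, a difference tied to bead uptake and any other difference between the branches cannot be told apart. In these bulk samples, fewer cells with a transcript and less of it per cell cannot be told apart either.

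The recovered depth was 14576506 to 17916519 reads per library. The sample numbers in the labels fall into a low set (12 and below) and a high set (19 and above), whose meaning the labels do not give. In A375 the low set holds positive replicates 1 and 2 and negative replicate 1, so that set and branch are unbalanced, whereas in 253J it holds replicates 1 and 2 of both branches. The pigment cell antigen MLANA lay at 41.9 to 94.0 in A375 and at 0 to 7.1 in 253J. The epithelial keratin KRT7 lay at 139.7 to 218.1 in 253J and at 0 to 2.8 in A375, and the epithelial adhesion gene EPCAM was at most 6.1 in 253J. Some other markers of these cell types were present in both lines. PMEL stood at 2459 to 4506 in A375 and 56.9 to 113.4 in 253J, and MITF at 3324 to 5462 and 1117 to 1192. KRT18 stood at 848 to 1141 in A375 and 14851 to 21858 in 253J. GATA3 overlapped between the lines, at 6.9 to 33.2 and 14.2 to 26.0. Levels are normalized read counts throughout, scaled within each line, and a log2 fold change means the positive cells less the negative ones on the log2(value + 1) scale.

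NTRK3 and SORT1 are the genes of the group whose positive libraries lay below the negative ones in 253J by the widest margins. The sequence around the annotated RefSeq start of each (250 bases before it, 50 after, minus strand, build GRCh38.p14) is shown for context, at chr15:88256690-88256989 for NTRK3 and chr1:109397869-109398168 for SORT1. SORT1 has 2 such windows in the table, of which the first listed is given. Capitals mark GGGCGG, the core of the GC box that Sp1-type factors bind, searched on both strands.
NTRK3: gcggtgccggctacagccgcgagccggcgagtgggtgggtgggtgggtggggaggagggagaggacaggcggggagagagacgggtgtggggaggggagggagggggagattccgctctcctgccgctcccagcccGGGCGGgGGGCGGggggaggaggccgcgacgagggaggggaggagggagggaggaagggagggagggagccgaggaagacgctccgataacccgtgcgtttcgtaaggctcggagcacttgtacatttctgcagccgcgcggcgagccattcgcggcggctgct
SORT1: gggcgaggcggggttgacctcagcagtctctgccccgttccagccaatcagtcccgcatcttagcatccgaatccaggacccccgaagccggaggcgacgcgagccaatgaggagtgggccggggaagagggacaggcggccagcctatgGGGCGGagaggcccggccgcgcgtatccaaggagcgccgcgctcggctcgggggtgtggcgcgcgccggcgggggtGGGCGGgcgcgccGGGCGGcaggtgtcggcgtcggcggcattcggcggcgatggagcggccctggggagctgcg
The NTRK3 window holds 2 matches and the SORT1 window 3, and 45.0% of 35116 windows of this length in the table hold at least 1. Their GC contents are 72.0% and 74.7%, against a median of 58.7% over all windows. The letters are a description, and binding was not measured.

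NTRK3 encodes TrkC, the preferred receptor of neurotrophin-3. The gene (ENSG00000140538) lies on the minus strand of chromosome 15 of GRCh38, from 87859751 to 88256768, with 26750 bases of annotated exon. In 253J its normalized read count was 46.0, 24.2 and 38.6 in positive replicates 1 to 3 and 382.5, 359.6 and 263.9 in negative replicates 1 to 3. All 3 positive libraries lay far below all 3 negative ones. The means were 36.3 ± 11.1 and 335 ± 62.9 (SD, n = 3 each), a log2 fold change of -3.20 ± 0.24 (SE) or 9.21-fold. Among the 14189 genes tested in 253J this was position 1 from the lowest fold change, a value that chose the gene. The difference was -3.43 within the low sample numbers and -2.74 within the high ones, where 1 positive library stands against 1 negative library. Leaving out any 1 of the 6 libraries gave -3.39 to -2.94.

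In A375, NTRK3 was near the limit of detection. Positive libraries held 0, 2 and 2 reads and negative libraries 17, 10 and 6. The normalized read counts were 0, 1.9 and 2.0 against 17.0, 9.9 and 6.0, and the 2 branches did not overlap. The mean over all 6 libraries, 6.13, was under the minimum of 10 set for testing. Without that filter the log2 fold change was -2.43 ± 0.58 (SE). The tables count whole genes, so TrkC isoforms with and without the kinase domain cannot be told apart in either line.

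**Figure D1:**
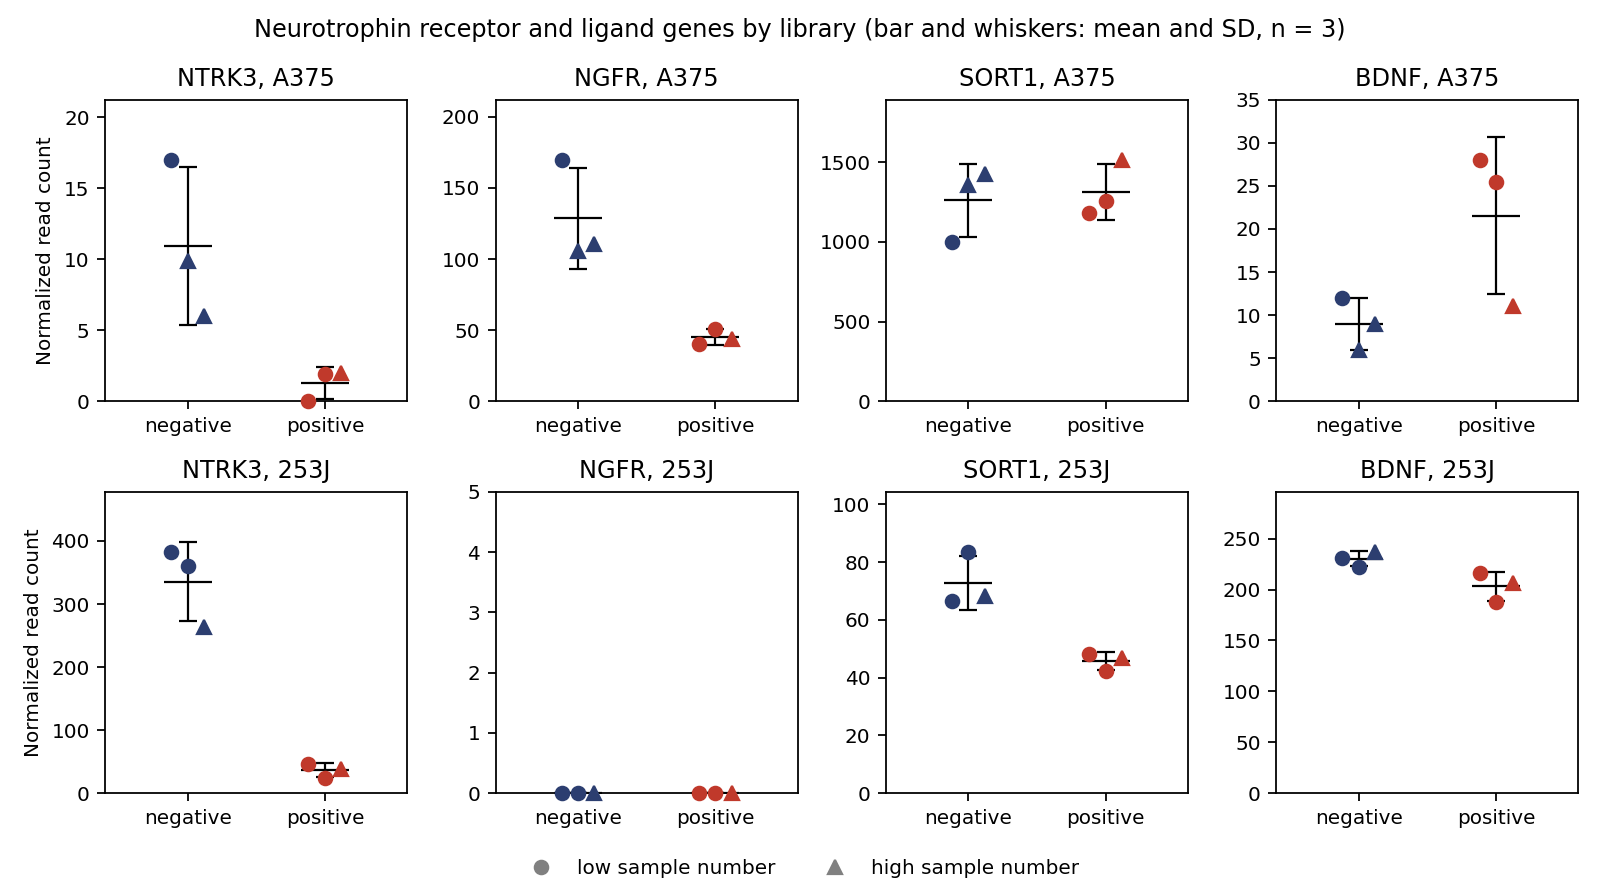
Normalized read count (y axis, from 0, a scale of its own in each panel) of the 4 genes in the negative and positive libraries of A375 (top) and 253J (bottom). Each point is a library, circles have low and triangles high sample numbers, and the bar with whiskers is the mean and SD of 3 libraries. NTRK3 in 253J goes from 263.9 or more in negative to 46.0 or less in positive libraries.

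NGFR encodes p75. The gene (ENSG00000064300) lies on the plus strand of chromosome 17, from 49495293 to 49515017. In A375 the normalized read count was 40.5, 51.1 and 43.6 in positive replicates 1 to 3 and 169.6, 105.8 and 110.5 in negative replicates 1 to 3. The branches did not overlap, and the low-numbered negative library stood above the 2 high-numbered ones. The means were 45.1 ± 5.45 and 129 ± 35.6 (SD, n = 3 each), a log2 fold change of -1.47 ± 0.20 (SE) or 2.76-fold. Within the low sample numbers the difference was -1.88 and within the high ones -1.29, each from 2 libraries against 1. Leaving out any 1 library gave -1.59 to -1.25. Of the gene's exon bases, 924 and 202 are shared with AC015656.1 and AC006487.1 on the opposite strand. The sources used here do not give the strand setting of the counting.

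In 253J, NGFR had 0 reads in each of the 6 libraries. A count of 0 allows up to 3 reads per library, or 0.167 to 0.206 RPM, which covers counting error only. A change of NGFR in 253J was therefore not detectable at this depth.

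Schwann cell markers were also expressed in A375, and all 5 of 5 listed genes were present. Their summed level was 4510 to 4673 in positive and 4049 to 4310 in negative libraries, with S100B at 1475 to 2126 over the 6 libraries. The neuron list (4 of 5 with a row) summed to 245 to 281 and 164 to 168, mostly through the tubulin gene TUBB3. The epithelial list (7 of 8) summed to 1028 to 1124 and 1333 to 1417, with EPCAM at 0 in the 3 negative libraries. The pigment cell list (5 of 6) overlapped between the branches at 10343 to 13868 and 13028 to 25314, and so did the leukocyte list (4 of 5) at 4.0 to 27.4 and 7.0 to 23.7. The fibroblast and endothelial list (2 of 5) summed to 38.5 to 52.0 and 32.9 to 37.8. Sums of the Schwann, neuron, epithelial and fibroblast lists thus did not overlap between the A375 branches, and their part in the NGFR difference was not tested. In 253J the Schwann list summed to only 9.5 to 16.0 and 13.2 to 22.3, with CDH19, PMP2 and S100B at 0 in the positive libraries. The pigment gene TYR was at 0 in all 6 libraries of 253J. The other lists overlapped between the 253J branches: the pigment list at 1238 to 1279 and 1217 to 1284, mostly MITF, the epithelial list at 30533 to 33104 and 26459 to 34768, the neuron list at 300.5 to 424 and 282 to 384, the leukocyte list at 7.4 to 12.1 and 9.0 to 12.5, and the fibroblast and endothelial list at 244 to 305 and 289 to 305. Their part in the NTRK3 difference was not tested.

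SORT1 encodes sortilin, a sorting receptor that carries pro-BDNF through the secretory pathway and binds pro-neurotrophins at the cell surface. The gene (ENSG00000134243) lies on the minus strand of chromosome 1, from 109309568 to 109397951. In 253J it stood at 48.1, 42.2 and 46.7 in positive replicates 1 to 3 and at 66.5, 83.5 and 68.2 in negative replicates 1 to 3. The positive libraries again lay below the negative ones without overlap. The means were 45.7 ± 3.08 and 72.7 ± 9.36 (SD, n = 3 each), a log2 fold change of -0.65 ± 0.15 (SE), with -0.71 within the low and -0.54 within the high sample numbers. In A375 the order was not the same, and SORT1 was more abundant. It stood at 1179.3, 1255.3 and 1514.0 in positive and 999.4, 1360.1 and 1424.4 in negative libraries, which overlapped, with a log2 fold change of 0.07 ± 0.15 (SE). Within the low sample numbers the A375 difference was 0.28 and within the high ones 0.12. Over the 1237 tested protein-coding genes of chromosome 1 in A375, the median log2 fold change was 0.16, and SORT1 less that median gave -0.09.

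BDNF encodes a ligand of TrkB and p75 that is made as a precursor. The gene (ENSG00000176697) lies on the minus strand of chromosome 11, from 27654893 to 27722058. In 253J it was the highest of the 4 genes per exon length, at 216.0, 187.7 and 206.0 in positive and 231.2, 222.4 and 236.8 in negative replicates 1 to 3. The branches did not overlap, but the step between them was small, with means of 203 ± 14.4 and 230 ± 7.26 (SD, n = 3 each) and a log2 fold change of -0.18 ± 0.09 (SE). In A375, BDNF was low, at 28.0, 25.5 and 11.1 in positive and 12, 5.9 and 9.0 in negative libraries. These overlapped through positive replicate 3, the only high-numbered positive library. The log2 fold change was 1.12 ± 0.41 (SE), with 1.09 within the low and 0.54 within the high sample numbers. Chromosome 11 had a median of -0.27 over 691 tested protein-coding genes in A375, so BDNF lay 1.39 above that median. BDNF shares 701 exon bases with BDNF-AS on the opposite strand, which stood at 0 to 3.0 in A375 and 4.3 to 19.1 in 253J, and without the strand setting their reads cannot be told apart there.

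With the limma test across all genes, 1 of the 3 tested genes of the group passed at an adjusted p of 0.05 in A375 (NGFR) and 1 of 3 in 253J (NTRK3). Over all tested genes 10.2% passed in A375 and 1.09% in 253J. With the number set as a block, 2 of 3 passed in each line, SORT1 in addition, where 32.0% and 18.6% of all genes passed. With the replicate number as a block, 1 of 3 passed in A375 and 2 of 3 in 253J, against 17.2% and 14.0%. The ranges of the branches were apart for 1 of 3 in A375 and 3 of 3 in 253J, each time with the positive side lower. The same held for 29.5% and 20.2% of all tested genes in either direction, and for 15.0% and 9.83% with the positive side lower. The median log2 fold change of the 3 tested genes was 0.07 in A375 and -0.65 in 253J, with 0.00 over all genes in both. Because these contrasts chose the genes, nothing is read from the counts.

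**Figure D2:**
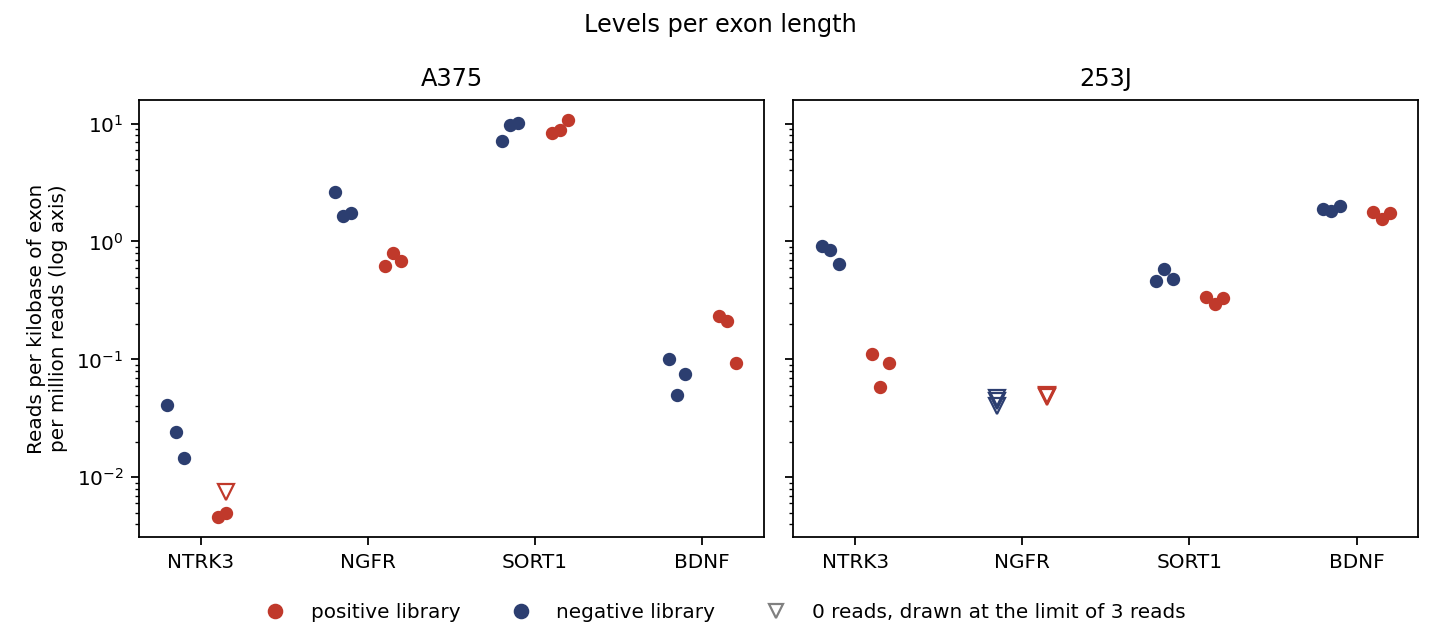
RPKM, reads by annotated exon length and library depth (y axis, logarithmic) of the 4 genes in each negative (blue) and positive (red) library of A375 and 253J. Open triangles stand for 0 reads and are drawn at the limit of 3 reads. SORT1 is the highest gene in A375 and BDNF in 253J.

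Per exon length, the order of the levels differed between the lines. In RPKM (recovered reads scaled by exon length and library depth), A375 had SORT1 highest (7.06 to 10.8 over 6 libraries), followed by NGFR (0.625 to 2.64), BDNF (0.0499 to 0.232) and NTRK3 (0 to 0.0410). The ranges of neighbouring genes did not overlap. In 253J, BDNF was highest (1.56 to 1.99) and NGFR was at 0. Between them, NTRK3 stood above SORT1 in negative cells (0.801 ± 0.142 against 0.508 ± 0.0622, SD, n = 3) and below it in positive cells (0.0874 ± 0.0266 against 0.321 ± 0.0225). The 2 tables were scaled separately, so levels of 1 gene in the 2 lines are compared only in order of magnitude and without a test. NTRK3 levels per length rest on a union of exons that no single transcript holds.

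The high and low sample numbers give a contrast that did not choose the genes, and it was tested with branch as a term in limma. By the chi-square measure given below, same-branch libraries differed little within a set (1.25 to 1.63) and more across sets (7.17 to 17.1). The p-values of this contrast treat such near repeats as independent libraries, so they may be too small. A fit with same-set libraries averaged was not run for it. SORT1 was higher in the high-numbered A375 libraries, at a mean of 1433 against 1145 (n = 3 each), a log2 difference of 0.40 ± 0.05 (SE, adjusted p = 3.21e-08). BDNF stood at 8.67 in the high-numbered and 21.8 in the low-numbered libraries, a difference of -0.92 ± 0.33 (SE). It reached the minimum mean of 10 only through the low-numbered libraries, so no test of it is read here. NGFR did not pass in limma (-0.35 ± 0.16, adjusted p = 0.0868) and passed in edgeR on the recovered reads (adjusted p = 0.00715). It also passed in limma without positive replicate 1 (adjusted p = 0.0228) or positive replicate 3 (0.0146). Without negative replicate 1, its highest library, the difference was -0.06 (limma adjusted p = 0.887). NGFR also did not pass without positive replicate 2 or negative replicates 2 or 3. Its mean was 87.1 in the low-numbered and 86.6 in the high-numbered libraries. Over all genes tested in A375, 36.8% passed. In 253J, 0 of 3 passed in limma, 0 had an unadjusted p under 0.05, and 32.6% of all genes passed. NTRK3 differed by -0.14 ± 0.19 there (adjusted p = 0.595) and passed in edgeR (-0.39, adjusted p = 0.0203), and in limma without positive replicate 2 (0.0132). Its difference was -0.49 without positive replicate 3 and 0.20 without negative replicate 3. The high set then held only 1 library. NTRK3 did not pass without positive replicate 1 or negative replicates 1 or 2.

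**Figure D3:**
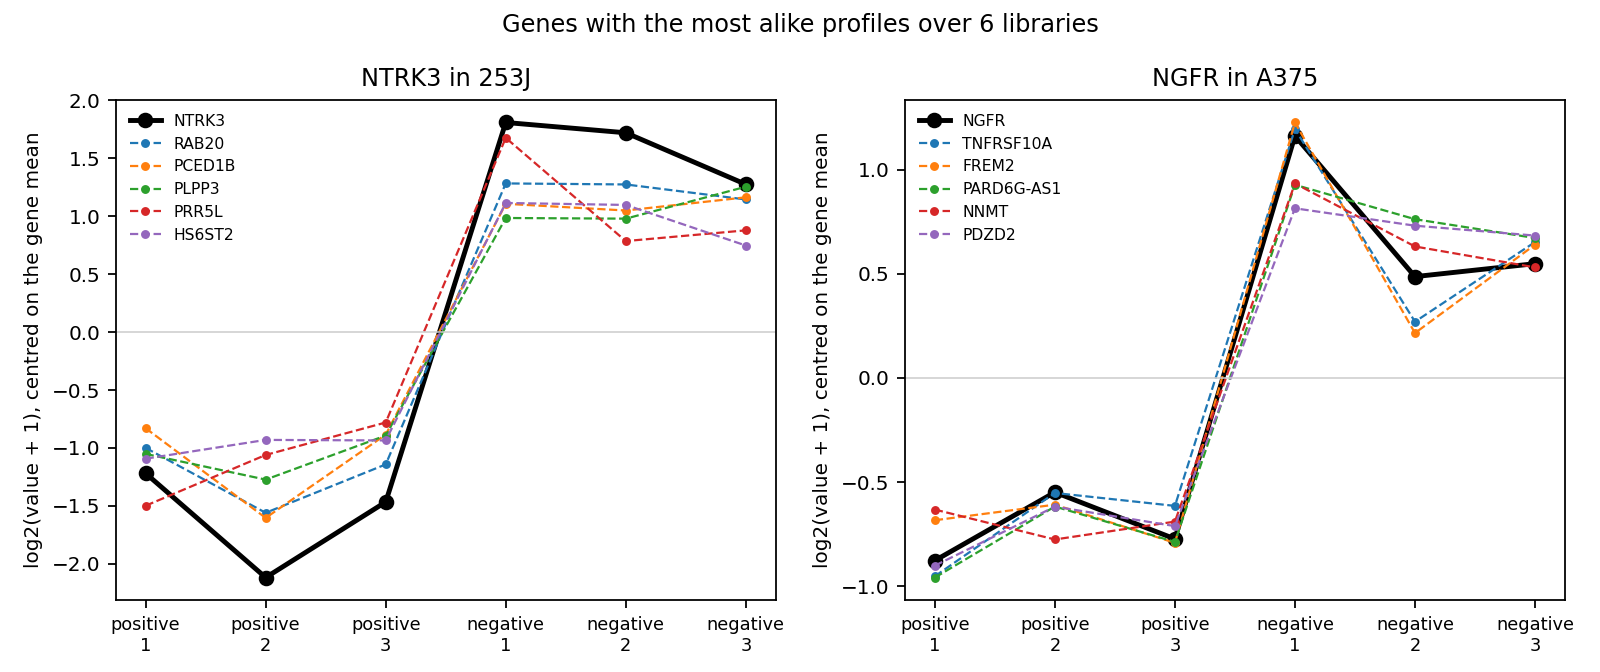
Profiles of NTRK3 over the 6 libraries of 253J (left) and of NGFR over the 6 libraries of A375 (right), black, with the 5 genes of smallest root mean square difference, coloured. The y axis is log2(value + 1) less the gene's own mean, and all profiles are high in the negative libraries.

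Profiles most like that of NTRK3 were sought among 66 genes of 253J with a mean of at least 10 and an SD of at least 0.5 times its own, by the root mean square difference of centred log2 values over 6 libraries. The closest was RAB20, a Rab GTPase, at 0.40, from 94.1 in negative to 16.4 in positive cells. Next were PCED1B at 0.53, the lipid phosphatase PLPP3 at 0.62, PRR5L at 0.67 and the heparan sulfate sulfotransferase HS6ST2 at 0.69. PCED1B went from 19.3 in negative to 3.5 in positive cells and PRR5L from 18.7 to 3.13. Both reached the mean of 10 only through the negative libraries, so nothing is read from their closeness. For NGFR in A375, 1732 genes were compared, and the closest was TNFRSF10A, the death receptor for TRAIL and like NGFR a member of the tumour necrosis factor receptor family, at 0.12, from 22.5 in negative to 7.60 in positive cells. TNFRSF10A, too, reached the mean of 10 only through the negative libraries. It was followed by FREM2 (0.15), the antisense gene PARD6G-AS1 (0.16), NNMT (0.18) and PDZD2 (0.19). PARD6G-AS1 is annotated as antisense, so its reads cannot be told apart from those of an overlapping gene without the strand setting.

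The other genes of the pathway were taken from 7 lists of 106 genes, of which 101 have a row. In A375, 91 were tested, 6 rose, 8 fell and 77 did not pass. That is 15.4% called, against 10.2% of all genes tested, with a median log2 fold change of -0.02 against 0.00. In 253J, 87 were tested, 1 fell and 86 did not pass, which is 1.15% against 1.09%, with a median of 0.04 against 0.00. None rose in limma or edgeR there, and 14 were higher and 5 lower at an unadjusted limma p under 0.05. Of the 14189 genes tested in 253J, 999 were higher and 930 lower at that threshold. In DESeq2, 2 pathway genes rose and 1 fell, against 147 and 149 of all genes. Over all genes, 4.99% rose and 5.26% fell in A375, and 0.529% rose and 0.564% fell in 253J. In the fit that pairs the 253J libraries by replicate number, 14 pathway genes rose and 5 fell in 253J, against 7.28% and 6.75% of all genes. In the fit with a term for the number set, 17 pathway genes rose and 8 fell in 253J, against 9.78% and 8.87%. That fit had 17 rising and 21 falling in A375, against 15.6% and 16.5%. In A375 the count of 14 called genes became 6 when positive replicate 1 was dropped. It became 5 when positive replicate 2, or either high-numbered negative library, was dropped. It was 1 with same-set libraries averaged.

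Among sorting receptors related to sortilin, SORCS2, which binds pro-BDNF and p75, fell in 253J. It went from 493.3, 491.5 and 663.2 in negative to 320.8, 313.1 and 290.2 in positive replicates 1 to 3, with a log2 fold change of -0.82 ± 0.12 (SE) and an adjusted p of 0.0181. The difference was -0.63 within the low and -1.19 within the high sample numbers. The call ended when any 1 of the 3 positive libraries was left out (adjusted p up to 0.114). SORCS2 was at 0 to 3.0 in A375 and not tested there. SORL1 stood at 734.0, 708.6 and 1076.2 in A375 positive and 250.3, 532.2 and 541.5 in negative libraries. These did not overlap, but SORL1 did not pass (log2 fold change 0.98 ± 0.30, adjusted p = 0.0847). It passed in limma with a term for the number set (adjusted p = 7.79e-15) and missed the threshold with same-set libraries averaged (adjusted p = 0.272). Its difference was 1.52 among low and 1.00 among high sample numbers. In 253J it overlapped, at -0.12 ± 0.13 (adjusted p = 0.738). SORCS1 did not pass in A375 (0.09 ± 0.20, adjusted p = 0.832). With a term for the number set its log2 fold change was 0.27 and it passed (limma adjusted p = 4.9e-05), and with same-set libraries averaged it did not (0.756). The ligand gene NTF4 stood at 5.3 to 15.4 in 253J and at 0 to 1.0 in A375. In 253J it reached the minimum mean of 10 only through the negative libraries (mean 13.0, against 9.33 in positive). No test of NTF4 is therefore read here. SORCS3, NRADD and BEX1 have no row and are not analysed here.

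Of 8 tested genes that process pro-neurotrophins or regulate that step, 2 rose and 1 fell in A375. PCSK5, a proprotein convertase, rose 2.17-fold from 188 ± 14.0 to 410 ± 20.9 (adjusted p = 0.000718). The convertase PCSK2 of the regulated secretory pathway, on chromosome 20, fell 3.34-fold from 59.9 ± 8.05 to 17.2 ± 2.41 (adjusted p = 0.00213). Of 8 genes that cleave p75, the gamma-secretase subunit NCSTN rose 1.31-fold to 3078 ± 86.6 (adjusted p = 0.00325) and the sheddase gene ADAM10 fell 1.17-fold to 2532 ± 33.8 (adjusted p = 0.0267). NCSTN lies on chromosome 1, whose median log2 fold change in A375 was 0.16, against 0.39 for NCSTN. In 253J 0 of the 8 processing and 0 of the 8 cleavage genes passed in limma or edgeR. At an unadjusted limma p under 0.05, 2 processing genes were higher and 1 lower, and 1 cleavage gene was higher and 1 lower. Of all 14189 genes tested there, 999 were higher and 930 lower. DESeq2 had 1 processing gene rising. In the paired fit of 253J, 2 processing genes rose, and 1 cleavage gene rose and 1 fell. Over all genes in that fit, 7.28% rose and 6.75% fell.

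Of 14 tested p75 partners, 1 rose in A375, MAGED1 (NRAGE), an adaptor of p75 on the X chromosome. It went from 1113 ± 41.4 to 1658 ± 47.7 (SD, n = 3 each), a log2 fold change of 0.57 ± 0.05 (SE, adjusted p = 0.00119). The difference was 0.54 among low and 0.56 among high sample numbers. Of 30 Trk adaptors and signalling genes, 1 rose and 2 fell. The adaptor SHC1 on chromosome 1 rose 1.35-fold (adjusted p = 0.0131), and the docking protein gene GAB1 fell 1.29-fold (adjusted p = 0.0373). The log2 fold change of SHC1 was 0.43, against a chromosome 1 median of 0.16 in A375. Of 11 trafficking and turnover genes 3 fell: the ubiquitin ligase NEDD4L on chromosome 18 (1.66-fold, adjusted p = 0.00359), the ubiquitin ligase CBL on chromosome 11 (1.25-fold, adjusted p = 0.0261) and the endocytic protein gene EHD4 (1.19-fold, adjusted p = 0.0386). The log2 fold change of CBL was -0.33, near the A375 median of -0.27 over 691 tested protein-coding genes of chromosome 11. A fall of CBL beyond that of its chromosome was not tested.

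Of 18 response genes in A375, the transcription factor gene EGR2 rose 2.09-fold, from 20.2 ± 3.08 to 44.6 ± 13.5 (adjusted p = 0.0455), and the ERK phosphatase gene DUSP6 fell 1.15-fold, from 3199 ± 53.7 to 2771 ± 126 (adjusted p = 0.0429). The calls of ADAM10, SHC1, CBL, GAB1, EHD4, EGR2 and DUSP6 were each lost on leaving out 4 or more of the 6 A375 libraries in turn, with adjusted p-values of up to 0.173. PCSK5, PCSK2, NCSTN, MAGED1 and NEDD4L passed without any 1 library. With same-set libraries averaged, PCSK5 passed limma (adjusted p = 0.0464). PCSK2 (0.0667), MAGED1 (0.0838), NEDD4L (0.129) and NCSTN (0.130) did not pass in that fit. In 253J, 0 of 16 tested response genes, 0 of 12 p75 partners, 0 of 29 Trk adaptors and 0 of 11 trafficking genes passed in limma or edgeR without a block, and DESeq2 had 1 response gene rising. At an unadjusted limma p under 0.05, 6 Trk adaptors were higher and 0 lower, and 3 response genes were higher and 1 lower. At that threshold 2 p75 partners were higher and 1 lower, and 0 trafficking genes were either. Over all 14189 genes tested in 253J, 999 were higher and 930 lower. In the paired fit of 253J, 7 Trk adaptors rose and 0 fell, and 3 response genes rose and 1 fell. There 1 p75 partner rose and 2 fell, and 0 trafficking genes passed, against 7.28% of all genes rising and 6.75% falling. With a term for the number set, 9 Trk adaptors rose and 0 fell, and 3 response genes rose and 2 fell. In that fit 2 p75 partners rose and 2 fell and 1 trafficking gene fell, against 9.78% of all genes rising and 8.87% falling.

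**Figure D4:**
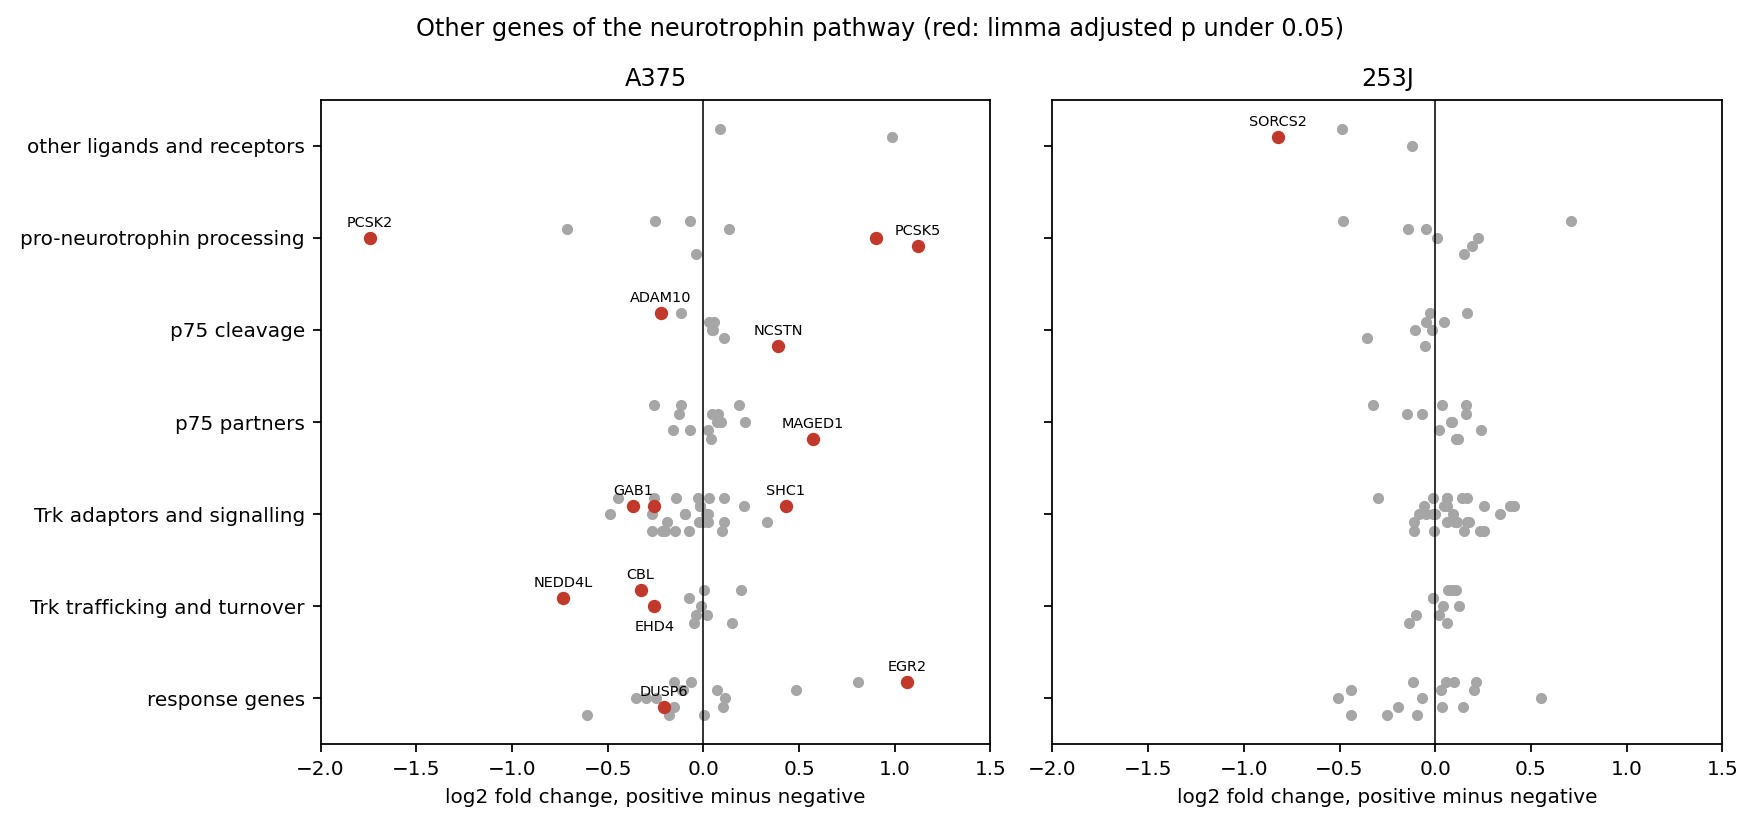
Log2 fold change, positive minus negative (x axis), of each tested pathway gene in A375 and 253J, in rows by list. Red points passed limma at an adjusted p of 0.05 (14 in A375, 1 in 253J) and carry the gene's name where it is reported, and grey points did not pass.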

How the data were processed

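Poly(A) RNA of 12 libraries was sequenced. The submitters' processing notes list STAR 2.4.2a, cutadapt, DESeq2 and HTSeq, and build GRCh38; the annotation release and strand setting are not given in the sources used here. The deposited values are a signal, gene read counts divided by 1 size factor per library and rounded to 0.1, scaled by line. Whole reads were recovered from the steps between low values, and at least 99.99% of values in each library came out whole within 0.055. Rows were matched to GENCODE 29 for position and exon length, for 99.6% of IDs.

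Because the values are normalized, limma 3.58.1 in R 4.3.3 was applied to log2(value + 1) of each gene whose mean reached 10. P-values were adjusted by Benjamini-Hochberg over all of these, with a threshold of 0.05. On the recovered reads, edgeR 4.0.16 called 1461 genes in A375 and 163 in 253J, and DESeq2 1.42.0 was also run. The scripts were tested on simulated data. Intervals and limits from counts of 0 cover counting error only, since the reads carry no molecular identifiers.

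The members and lists were chosen with earlier results of these data known. Every member is described. Called pathway genes are named up to 4 per list and direction by smallest p, and the 5 most alike profiles are named. Some genes of the lists are counted but not reported here by name. In 253J, same-numbered libraries of the branches deviated together (r = 0.29, 0.19 and 0.50), and an alternative fit treated the numbers as pairs. Replicates 1 and 2 also correlated across numbers (0.21 and 0.17), so pairing by number and sharing a number set cannot be told apart for them. Between replicates, chi-square per degree of freedom was 1.25 to 1.63 within a number set and 7.17 to 17.1 across sets. Alternatives were other pseudocounts, no filter, TMM scaling, both count tools, blocks, number sets apart and each library left out; averaging same-set libraries was added after seeing the data.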

Additional observations from a re-analysis of the deposited data

Results flagged for a closer look

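DUSP6, the ERK phosphatase gene among the Trk response genes, had a log2 fold change (positive minus negative) of -0.21 in A375 and 0.55 in 253J. Every A375 positive library lay below every negative one and every 253J positive library above, with means of 1198 ± 154 and 818 ± 121 (SD, n = 3 each) in 253J. Branch ranges were apart for 29.5% of all tested genes in A375 and 20.2% in 253J, in either direction. DUSP6 passed limma in A375 (adjusted p = 0.0429) and missed the threshold in 253J without a block (adjusted p = 0.0783). The A375 call was lost on leaving out any 1 of the 6 libraries (limma adjusted p = 0.0511 to 0.168). In 253J DUSP6 passed limma with the replicate number (adjusted p = 1.04e-05) or the number set (7.82e-08) as a block. It missed the threshold there with same-set libraries averaged (0.660). In A375 the averaged fit missed the threshold too (0.320). The difference between the lines was not tested.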

How the results depend on the processing

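In A375, 1447 genes passed. The count was 2429 with the replicate block, 4523 with the number set as a block, 2906 within the low and 2335 within the high number set, 53 with same-set libraries averaged, and 487 to 1881 with a library left out (546 and 487 when positive replicate 1 or 2 was dropped, 526 and 592 when negative replicate 2 or 3 was). A375 pathway calls were 14, and 9 with no filter, 27 with the replicate block, 38 with the number-set block, 29 and 24 within the low and high sets, 1 with averaging and 5 to 17 with a library left out. In 253J, 155 genes passed, and 58 with no filter, 296 in DESeq2, 1991 with the replicate block, 2645 with the number-set block, 2977 within the low set, 21 with averaging and 40 to 369 with a library left out. The 253J pathway count of 1 became 0, 3, 19, 25, 23, 0 and 0 to 3 in that order. The high set of 253J holds 1 library per branch and gave no count. By number set, 5189 genes passed in A375 (3027 with no filter, 3636 to 4815 with a library left out) and 4626 in 253J (1758 and 3048 to 5221). The number-set counts treat same-set libraries as independent, and no averaged fit was run for them. Of the members' number-set differences in 253J, NTRK3 ranged from -0.49 to 0.20 and SORT1 from -0.13 to 0.051 with a library left out, so both changed sign. The branch differences of NGFR in A375 and of NTRK3 in 253J kept their direction in each of 18 alternatives. These differences chose the group, and every alternative reuses the same libraries, so nothing is read from that. SORT1 in 253J and BDNF in both lines kept their direction too. SORT1 in A375 ranged from -0.09 to 0.28 and changed sign. No alternatives were run for NTRK3 in A375. The cause of these changes was not tested.

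In A375 the replicate numbers did not pair the libraries (r = 0.41, -0.27 and 0.40), and positive replicate 2 correlated best with negative replicate 1 (0.38). Depth limits NTRK3 in A375, with 4 reads in the 3 positive libraries, and NGFR in 253J, with 0.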
